A study of Mus musculus with 20 samples.

Results

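miR-143 and miR-145 were followed in mouse liver, as every row of miR-143, miR-145, miR-145a or miR-145b in any arm, joined names included. The search found 5 rows among the 880 miRNA rows listed in every file (1509 in any file): mmu-miR-143-3p, mmu-miR-143-5p, mmu-miR-145a-5p, mmu-miR-145a-3p and mmu-miR-145b (mmu for mouse, left out from here on). The last of these carries no arm suffix. No joined name held a member. Small RNA was sequenced from whole livers of C57BL/6 mice at 6 weeks of age, 5 of them PiZ and 5 wild type (WT). The PiZ line is transgenic for human alpha-1 antitrypsin with the Z mutation, a form that misfolds and piles up inside hepatocytes, and it keeps the mouse's own alpha-1 antitrypsin genes. WT mice carry no such transgene. The libraries do not measure the transgene's mRNA, so the genotype rests on the labels, and no source used here gives the sex of the mice. The mouse is the replicate, since the 2 runs of a library are technical and their reads were added.

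The hairpins of miR-143 and miR-145a are transcribed together from one long noncoding RNA gene, Carmn. In mouse vessels this locus is driven by serum response factor and myocardin, and its miRNAs favour the contractile state of smooth muscle cells. In liver they are known from the muscle of vessel walls, from pericytes and from stellate cells and fibroblasts rather than from hepatocytes. In the RefSeq genes of GRCm38.p6, Mir143 and Mir145a lay on chromosome 18 inside Carmn. Mir145b lay on chromosome 18 inside Gm31088, a gene with no named function. The GENCODE annotation places each of these hairpin genes on the minus strand.

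Libraries held 2433273 to 10780801 reads in PiZ mice and 1307857 to 10012788 reads in WT mice. The files fall into 2 sets by the length of their miRNA list, 1399 miRNAs for PiZ mice 1 and 2 and WT mice 1 to 3, and 990 miRNAs for PiZ mice 3 to 5 and WT mice 4 and 5. All libraries of the longer list were shallower than all libraries of the shorter list, so list and depth cannot be told apart. WT mice 1 and 3 stood apart as the 2 shallowest libraries (1307857 and 1524426 reads) and in the share of the most abundant miRNA, miR-22-3p, which was 59.7% and 52.2% of their reads and 38.5% to 46.1% in the other 8 libraries. Results that rest on these 2 mice are given with and without them where both were computed. Levels are given as CPM, reads per 1000000 reads of a library whose total was scaled by TMM. miR-122-5p, the defining miRNA of hepatocytes, was present in every library, at 9512 ± 1726 CPM over PiZ livers and 13013 ± 1133 CPM over WT livers (± SD, n = 5 per genotype).

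The miRNAs whose levels ran most like those of miR-143-3p and of miR-145a-5p over the 10 mice are shown by sequence here. Those 2 members of a single locus ran in opposite directions over all 10 mice, but not without WT mice 1 and 3 (r = 0.01). The sequences are the mature forms of RefSeq (GRCm38.p6), 5′ to 3′, with the seed, bases 2 to 8, in capitals; 6 of the 10 such miRNAs had an entry. The first 3 ran most like miR-143-3p and the other 3 most like miR-145a-5p.
miR-126a-3p: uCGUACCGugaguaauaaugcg
miR-33-3p: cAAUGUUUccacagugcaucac
let-7f-5p: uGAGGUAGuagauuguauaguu
miR-455-3p: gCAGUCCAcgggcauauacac
miR-139-5p: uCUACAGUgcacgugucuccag
miR-92b-3p: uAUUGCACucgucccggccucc
No seed was shared among them. G and C made up 45.5% of miR-126a-3p, 45.5% of miR-33-3p and 31.8% of let-7f-5p. They made up 57.1% of miR-455-3p, 54.5% of miR-139-5p and 63.6% of miR-92b-3p. Over all tested miRNAs with a sequence, the relation of G and C to likeness rests on WT mice 1 and 3, as given below.

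miR-143-3p was by far the most abundant member and one of the abundant miRNAs of these livers. By mean CPM it stood at place 12 of the 336 miRNAs tested, at 11310 CPM over the 10 mice, between miR-16-5p (12460 CPM) and miR-122-5p (11260 CPM). It did not differ from either beyond its own spread of 3394 CPM (SD, n = 10). miR-145a-5p stood at place 79 with 257 CPM, between miR-532-5p (259 CPM) and miR-30c-2-3p (255.5 CPM), again within its spread of 122.4 CPM. miR-145b at place 176 (24.3 CPM) and miR-145a-3p at place 188 (19.9 CPM) were lower still, with miR-34b-3p (24.6 CPM) and miR-221-5p (24.3 CPM) beside the first and let-7f-2-3p (19.9 CPM) and miR-744-3p (19.6 CPM) beside the second. miR-143-3p exceeded miR-145a-5p in every mouse, and miR-145a-5p exceeded miR-145a-3p and miR-145b in every mouse. The last 2 members kept no fixed order, since miR-145b was above miR-145a-3p in all 5 mice of the longer list and in only 1 of the 5 mice of the shorter list. Ligation to adapters differs between miRNAs, so the order of read counts need not be the order of molecules.

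Together the members took 0.783% to 1.47% of the reads of PiZ libraries and 0.576% to 1.52% of the reads of WT libraries. The lowest share in PiZ liver was that of mouse 5 (Wilson 95% interval 0.778% to 0.789%, counting error only), and the lowest in WT liver was that of mouse 1 (0.563% to 0.589%). miR-143-3p alone made up 97.7% to 98.6% of the member reads in PiZ mice. In WT mice 1 to 5 it made up 88.2%, 96.7%, 95.1%, 98.6% and 98.2% of them, so WT mice 1 and 3 held the lowest shares of the 10.

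The question of the first comparison was whether the level of these miRNAs differs between PiZ and WT liver. Of the 5 members, 4 passed the filter on low counts and 0 of these 4 passed the test (edgeR's quasi-likelihood test with a term for file set, Benjamini-Hochberg adjusted p under 0.05). Across all miRNAs 31 of 336 passed, 9.23%, with 28 higher (8.33%) and 3 lower (0.893%) in PiZ. At an unadjusted p under 0.05, 1 member passed in edgeR, miR-145a-5p, where 24.4% of all miRNAs did. DESeq2 and limma-voom called 0 of the 4 members as well, where they called 14.9% and 2.08% of all miRNAs. The members' median log2 fold change was -0.12, beside 0.07 for all tested miRNAs. In whole liver, fewer cells of a type and less of the miRNA per cell cannot be told apart.

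miR-143-3p, which in smooth muscle acts with miR-145 on genes of the cytoskeleton, had 13202, 13939, 13400, 12465 and 8946 CPM in PiZ mice 1 to 5. It had 4753, 10657, 7396, 16007 and 12364 CPM in WT mice 1 to 5. PiZ mice 1 to 4 lay close together and PiZ mouse 5 lay below them, while the WT mice spread from below the lowest to above the highest PiZ mouse. Means were 12390 ± 1997 CPM over PiZ livers and 10235 ± 4363 CPM over WT livers (± SD, n = 5 per genotype), with a log2 fold change of 0.27 (SE 0.28, edgeR adjusted p = 0.605). The difference was smaller than the spread between mice. Without WT mice 1 and 3 it was -0.11 and in the shorter file set alone -0.31 on the log2 scale, neither past the threshold, and without PiZ mouse 1 or PiZ mouse 2 it was -0.06, so these data fix no direction for it.

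miR-145a-5p, the guide strand of miR-145a, had 221.4, 259, 159, 164 and 172 CPM in PiZ mice 1 to 5. It had 561, 295, 343, 196 and 199.7 CPM in WT mice 1 to 5. PiZ mice 3 to 5 lay below every WT mouse, PiZ mice 1 and 2 lay between the WT mice of the shorter list and those of the longer list, and WT mouse 1 was highest of all. Means were 195 ± 43.7 CPM over PiZ livers and 319 ± 149 CPM over WT livers (± SD, n = 5 per genotype), with a log2 fold change of -0.50 (SE 0.22, edgeR adjusted p = 0.196, unadjusted p = 0.0472). It did not pass the adjusted threshold under any of 25 other settings either, with estimates of -0.75 to -0.29 and adjusted p of 0.0777 (DESeq2) to 0.379.

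The 2 file sets were then set side by side for miR-145a-5p, a view added after its values were seen. In the longer list it averaged 240 CPM in the 2 PiZ mice and 399.6 CPM in the 3 WT mice, and in the shorter list 165 CPM in the 3 PiZ mice and 198 CPM in the 2 WT mice. Within each set every PiZ mouse lay below every WT mouse, which was so for 16 of 336 miRNAs, 4.76%. Counting either direction, if the same in both sets, the genotypes were apart for 45 of 336, 13.4%. The direction was not set beforehand, so the larger share is the one to hold beside this member. No other tested member had its genotypes apart within both sets. Across both sets together, 30 of 336 miRNAs (8.93%) had PiZ and WT mice that did not overlap, and no member was among them.

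miR-145a-3p, the opposite arm of the same hairpin, had 22.5, 22.9, 15.2, 18.5 and 24.4 CPM in PiZ mice 1 to 5. It had 15.0, 29.7, 15.7, 17.6 and 17.3 CPM in WT mice 1 to 5. The groups overlapped, with WT mouse 2 above all PiZ mice and WT mouse 1 below them. These levels rest on few reads, 55 to 209 in PiZ and 21 to 159 in WT mice. Means were 20.7 ± 3.75 CPM over PiZ livers and 19.1 ± 6.07 CPM over WT livers (± SD, n = 5 per genotype), with a log2 fold change of 0.16 (SE 0.26, edgeR adjusted p = 0.767) that turned to -0.0018 with upper quartile scaling and to -0.09 without WT mice 1 and 3.

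miR-145b, a relative of miR-145a-5p with a gene of its own, had 31.5, 33.1, 11.1, 8.70 and 10.2 CPM in PiZ mice 1 to 5. It had 56.5, 39.1, 24.6, 19.1 and 9.12 CPM in WT mice 1 to 5. The genotypes overlapped, and the high values of both genotypes belonged to the longer list. Means were 18.9 ± 12.3 CPM over PiZ livers and 29.7 ± 18.5 CPM over WT livers (± SD, n = 5 per genotype), with a log2 fold change of -0.40 (SE 0.29, edgeR adjusted p = 0.429). No source used here says how reads that match both miR-145b and miR-145a-5p were assigned, so the split between these 2 rows is uncertain, although no member value in any file was fractional.

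miR-143-5p, the arm of miR-143 that is mostly discarded, failed the filter and was not tested. It had 8, 1, 4, 7 and 4 reads in PiZ mice 1 to 5 and 2, 1, 3, 1 and 0 reads in WT mice 1 to 5. The 0 in WT mouse 5 allows a level of up to 0.326 CPM, counting 3 reads as the limit. No fold change is given at these counts: sums of 24 reads in PiZ and 7 reads in WT libraries come from libraries of unlike depth.

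**Figure D1:**
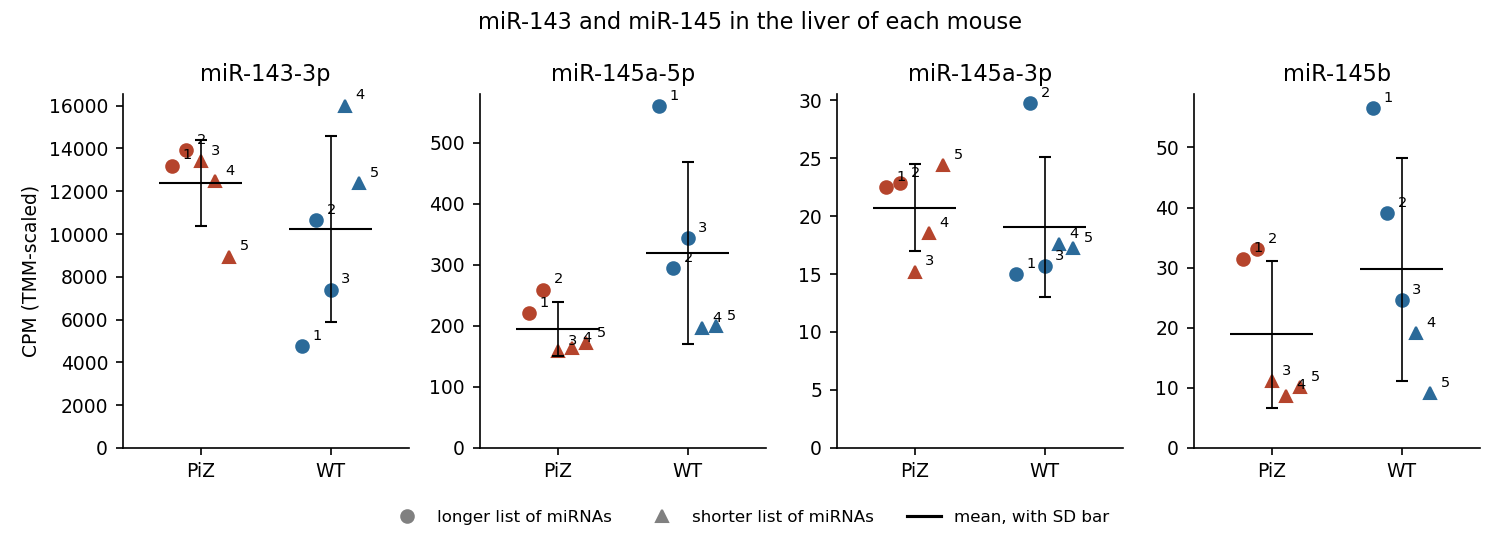
Level of each tested member in CPM (TMM-scaled, linear axes from 0) in PiZ and WT mice, 1 numbered point per mouse, circles for the longer and triangles for the shorter miRNA list, with the mean and SD of each genotype. miR-145a-5p is lowest in PiZ mice 3 to 5 (159 to 172 CPM) and highest in WT mouse 1 (561 CPM), miR-143-3p is lowest in WT mouse 1 (4753 CPM), and miR-145b separates by list more than by genotype.

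The spread between mice of one genotype differed among members. On the log2 scale the SD of miR-143-3p was 0.26 in PiZ and 0.68 in WT mice, where the median over all tested miRNAs was 0.38 in PiZ and 0.53 in WT mice. miR-145a-5p had SDs of 0.31 in PiZ and 0.63 in WT mice, and miR-145a-3p had 0.27 in PiZ and 0.39 in WT mice. miR-145b was the most variable member, at 0.92 in PiZ and 0.99 in WT mice. These SDs include the difference between file sets and, in WT mice, WT mice 1 and 3. For miR-143-3p those 2 had log2 CPM of 12.21 and 12.85, where WT mice 2, 4 and 5 had 13.38, 13.97 and 13.59. For miR-145a-5p they had 9.13 and 8.42, where WT mice 2, 4 and 5 had 8.21, 7.62 and 7.64. Technical runs of one library differed far less for the abundant members, by at most 0.05 on the log2 scale for miR-143-3p and 0.16 for miR-145a-5p. For the members with few reads the largest gap between runs was 0.86 for miR-145a-3p and 0.80 for miR-145b.

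The file sets were compared next, a test added after the values were seen, because the levels of miR-145b followed the list. miR-145b averaged 37.0 ± 12.1 CPM in the longer list and 11.6 ± 4.27 CPM in the shorter list (SD, n = 5 each) without overlap, a log2 fold change of 1.599 (SE 0.29, edgeR adjusted p = 0.0357). It was 1 of 2 miRNAs of 336 that passed, 0.595%; the other was miR-339-3p (log2 fold change 1.14, edgeR adjusted p = 0.0357). That count was 0 to 17 over 21 alternatives, 17 with no filter, 9 in DESeq2 and 0 without WT mice 1 and 3, and in 13 of the 21 it moved by more than 1.5 times. The call is fragile: the adjusted p was 0.0621 to 0.171 without any single one of the PiZ mice or of WT mice 1, 2 and 5, 0.106 without WT mice 1 and 3 and 0.0561 with run 2 alone, while the log2 fold change stayed between 1.34 and 1.89. In the other 11 of the 21 alternatives the call of miR-145b was kept. miR-145a-5p averaged 336 ± 133.4 CPM in the longer and 178 ± 18.8 CPM in the shorter list, also without overlap, as for 9 of 336 miRNAs (2.68%). Its log2 fold change of 0.78 (SE 0.22) did not pass in edgeR (adjusted p = 0.263) and passed in DESeq2 (adjusted p = 0.0159). miR-143-3p (-0.34, SE 0.28, edgeR adjusted p = 0.802) and miR-145a-3p (0.22, SE 0.26, edgeR adjusted p = 0.856) did not pass, and miR-143-3p was 0.03 without WT mice 1 and 3. Depth, list and any difference in how the animals of the 2 sets were handled cannot be told apart.

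Whether the genotype difference itself differs between file sets was tested with an interaction term. In edgeR 0 of 372 miRNAs passed, 0%, with 16 (4.3%) at an unadjusted p under 0.05, and DESeq2 and limma-voom also called 0, with 15 and 16 at an unadjusted p under 0.05. miR-143-3p averaged 13570 CPM in PiZ and 7602 CPM in WT mice of the longer list, and 11604 CPM in PiZ and 14186 CPM in WT mice of the shorter list. Its log2 fold changes therefore pointed in opposite directions, 0.84 and -0.29 as log2 ratios of those means, and the difference between them was 1.18 (SE 0.49, edgeR unadjusted p = 0.0374, adjusted p = 0.873). The differences for miR-145a-5p (-0.42, SE 0.43, edgeR adjusted p = 0.873), miR-145a-3p (0.06, SE 0.54, adjusted p = 0.973) and miR-145b (0.24, SE 0.61, adjusted p = 0.940) were smaller than their errors.

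A ratio of 2 members within a library needs no scaling, and 2 such ratios were tested between genotypes. miR-143-3p and miR-145a-5p come from neighbouring hairpins of one transcript, and their read ratio was 59.6, 53.7, 84.3, 76.1 and 52.0 in PiZ mice 1 to 5. It was 8.47, 36.1, 21.5, 81.5 and 61.9 in WT mice 1 to 5. The 3 WT mice of the longer list lay below all other mice, and the 2 WT mice of the shorter list lay among the PiZ mice. The mean log2 ratio was 6.00 ± 0.31 over PiZ livers and 4.997 ± 1.30 over WT livers (± SD, n = 5 per genotype), a difference of 1.00 (exact two-sided permutation test p = 0.151, adjusted over the 2 ratios 0.151, smallest possible p 0.00794). Within the longer list the difference was 1.59 (exact p = 0.2) and within the shorter list -0.03 (exact p = 1.0), where the smallest possible exact p is 0.1. Without WT mice 1 and 3 it was 0.17 (exact permutation p = 0.607).

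The arms of the miR-145a hairpin gave a 5p to 3p read ratio of 9.76, 11.3, 10.4, 8.81 and 7.03 in PiZ mice 1 to 5. The ratio was 36.5, 9.84, 21.5, 11.1 and 11.5 in WT mice 1 to 5. The PiZ mice lay close together, WT mice 2 and 4 lay among them, WT mouse 5 just above them and WT mice 1 and 3 well above. The mean log2 ratio was 3.22 ± 0.26 over PiZ livers and 3.98 ± 0.80 over WT livers (± SD, n = 5 per genotype), a difference of -0.76 (exact two-sided permutation test p = 0.0556, adjusted over the 2 ratios 0.111). It was -0.92 in the longer list (exact p = 0.3) and -0.39 in the shorter list (exact p = 0.2), and -0.21 without WT mice 1 and 3 (exact p = 0.286). WT mice 1 and 3 had only 21 and 28 reads of the 3p arm, and the part of depth and of the miR-22-3p share in their ratios was not tested.

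The ratio of miR-145b to miR-145a-5p, added after the values were seen, was 0.143, 0.128, 0.0702, 0.0533 and 0.0594 in PiZ mice 1 to 5. It was 0.101, 0.134, 0.0725, 0.0977 and 0.0459 in WT mice 1 to 5. The genotypes overlapped, with a difference of -0.02 in the mean log2 ratio (exact permutation p = 0.944). By list the ratio had a median of 0.128 in the longer list (0.0725 to 0.143) and 0.0594 in the shorter list (0.0459 to 0.0977), with overlap.

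**Figure D2:**
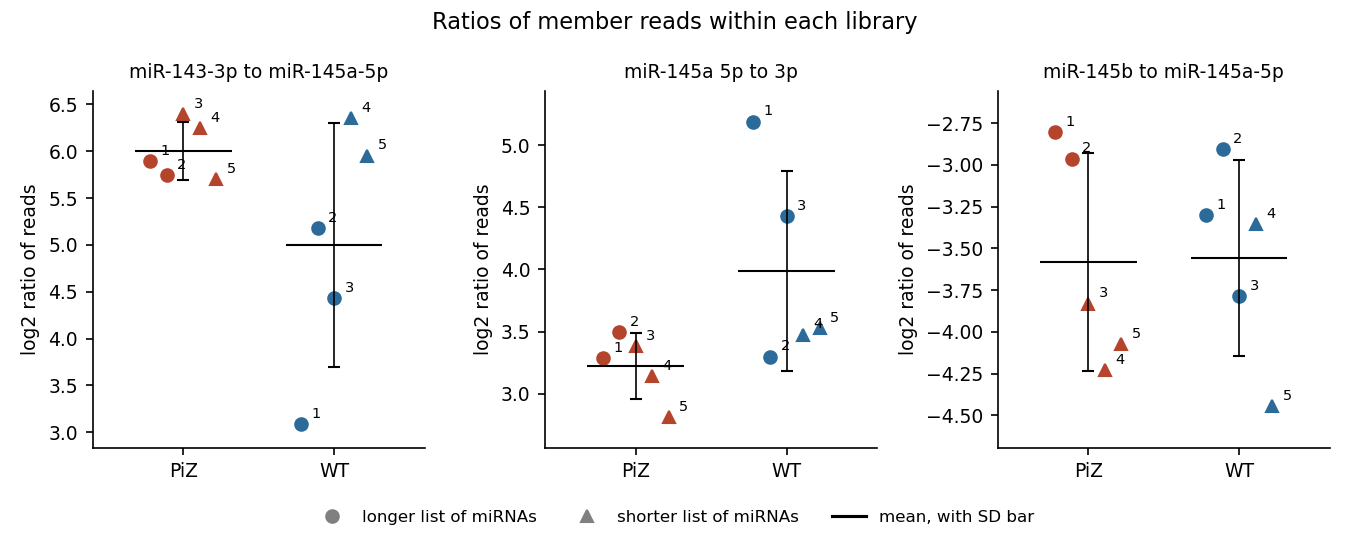
Log2 read ratios within each library for 3 pairs of members in PiZ and WT mice, 1 numbered point per mouse, circles for the longer and triangles for the shorter miRNA list, with the mean and SD of each genotype; the axes do not start at 0. In the first panel WT mice 1 to 3 lie below the PiZ mice (ratios of 8.47 to 36.1), in the second WT mice 1 and 3 lie above them (36.5 and 21.5), and in the third the genotypes overlap.

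Whether the members vary together from liver to liver was examined over the 10 mice with log2 CPM, in 6 pairs. miR-143-3p and miR-145a-5p ran in opposite directions (Pearson r = -0.78, permutation p = 0.0110, adjusted over the 6 pairs 0.0329; Spearman rho = -0.53, permutation p = 0.124). WT mice 1 and 3 were the 2 mice farthest from the median of miR-143-3p. Without them r was 0.01 (n = 8, exact permutation p = 0.981) and rho was -0.07, so the inverse relation rests on those 2 libraries. With upper quartile scaling r was -0.62 (permutation p = 0.0563). Each file set holds 5 mice, too few for a correlation of its own; taken as deviations from the means of genotype and file set over all 10 mice, those 2 included, r was -0.84.

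miR-145a-5p and miR-145b ran together (r = 0.84, permutation p = 0.00093, adjusted over the 6 pairs 0.00558; rho = 0.81, permutation p = 0.00711). Without WT mice 1 and 3 r was 0.89 (n = 8, exact permutation p = 0.00357). Both were higher in the longer list, and as deviations from the means of genotype and file set r was 0.38 (permutation p = 0.282), so the relation was not detectable once the means of both were taken out. The other 4 pairs, miR-143-3p with miR-145a-3p (r = 0.26, permutation p = 0.470), miR-143-3p with miR-145b (-0.43, p = 0.216), miR-145a-5p with miR-145a-3p (-0.15, p = 0.686) and miR-145a-3p with miR-145b (0.18, p = 0.623), did not pass. The sign turned without WT mice 1 and 3 for miR-143-3p with miR-145a-3p (r = -0.58, n = 8, exact permutation p = 0.136) and for miR-143-3p with miR-145b (r = 0.19, n = 8, exact permutation p = 0.649). The arms of one hairpin, miR-145a-5p and miR-145a-3p, thus showed no detectable relation over all 10 mice. That pair, and miR-145a-3p with miR-145b, were not examined without WT mice 1 and 3, which had only 21 and 28 reads of miR-145a-3p. WT mice 1 and 3 had the highest levels of miR-145a-5p (561 and 343 CPM) but only 15.0 and 15.7 CPM of miR-145a-3p. Among the other mice (n = 8) both arms were highest in WT mouse 2 (295 and 29.7 CPM) and lowest in PiZ mouse 3 (159 and 15.2 CPM). PiZ mouse 5 was low in the 5p arm (172 CPM) and high in the 3p arm (24.4 CPM). Whether the lack of a relation over all 10 mice rests on WT mice 1 and 3 was not tested.

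**Figure D3:**
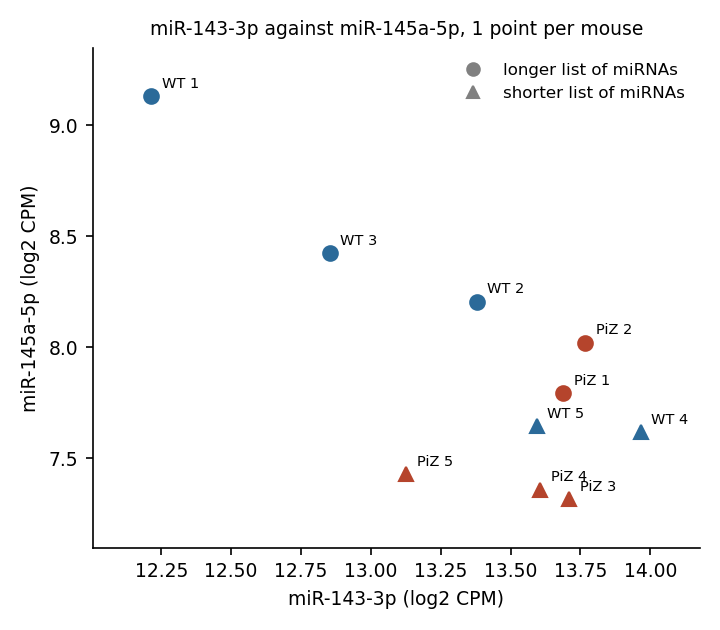
Log2 CPM of miR-145a-5p against log2 CPM of miR-143-3p, 1 labelled point per mouse, PiZ in red and WT in blue, circles for the longer and triangles for the shorter miRNA list; neither axis starts at 0. WT mice 1 and 3 lie at the upper left, and the other 8 mice show no trend between them (r = 0.01).

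The likeness of all other tested miRNAs to the members is given as a description, since each miRNA was chosen for its likeness and all values share 10 libraries and their scaling. Among 335 others, miR-145a-5p took place 311 in likeness to miR-143-3p, so that its neighbour in the genome was among the miRNAs least like it, an order that includes WT mice 1 and 3. miR-145a-3p took place 174 for miR-145a-5p. miR-145b took place 9 in likeness to miR-145a-5p, and miR-145a-5p took place 3 in likeness to miR-145b.

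The 5 miRNAs most like miR-143-3p were miR-126a-3p (r = 0.90), miR-33-3p (0.87), miR-126a-5p (0.87), miR-142-3p (0.87) and let-7f-5p (0.86). Both arms of miR-126a are known from endothelial cells, miR-142-3p from blood cells, and miR-33 lies in an intron of the sterol regulator Srebf2. miR-126a-3p, the first of them, had 2883, 3463, 3506, 3489 and 2176 CPM in PiZ mice 1 to 5 and 1505, 3726, 2313, 3438 and 3423 CPM in WT mice 1 to 5. Like miR-143-3p it was lowest in WT mouse 1 and low in WT mouse 3 and PiZ mouse 5. Without WT mice 1 and 3 the r of miR-126a-3p was 0.61, that of miR-33-3p 0.54, that of let-7f-5p 0.28, that of miR-142-3p 0.15 and that of miR-126a-5p 0.10.

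The 5 most like miR-145a-5p were miR-455-3p (r = 0.96), miR-378a-5p (0.95), miR-139-5p (0.94), miR-187-3p (0.93) and miR-92b-3p (0.89). miR-455 lies in the collagen gene Col27a1, miR-378a in the coactivator gene Ppargc1b and miR-139 in the phosphodiesterase gene Pde2a. miR-455-3p had 6.14, 13.8, 3.003, 4.35 and 4.78 CPM in PiZ mice 1 to 5 and 29.3, 13.04, 14.0, 6.82 and 6.95 CPM in WT mice 1 to 5. It was highest in WT mouse 1 and lowest in PiZ mice 3 to 5, as miR-145a-5p was. Without WT mice 1 and 3 the r of miR-455-3p was 0.94, and the other 4 ranged from 0.49 for miR-92b-3p to 0.86 for miR-187-3p. No miRNA was on both lists of 5. By Spearman's rho the first list had values of 0.52 to 0.79 and the second 0.76 to 0.95, and as deviations from the means of genotype and file set r was 0.85 to 0.91 in the first and 0.81 to 0.95 in the second.

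The sequences printed above differ in G and C between these lists, and the same was seen across all tested miRNAs with a RefSeq sequence (293 of 335, 87.5%), which are not independent of each other. The share of G and C ran against the likeness to miR-143-3p (r = -0.59) and with the likeness to miR-145a-5p (r = 0.57). The 73 miRNAs most like miR-143-3p had a median of 38.1% G and C and the 73 least like it 50.0%. For miR-145a-5p the 73 most like had 52.2% and the 73 least like 38.1%, with a median of 45.8% over all. The same held for miR-145a-3p (r = -0.52) and miR-145b (r = 0.46), so the relation was not particular to miR-143-3p and miR-145a-5p. Without WT mice 1 and 3, an alternative chosen after seeing the data, r was 0.03 for miR-143-3p, -0.02 for miR-145a-5p, -0.02 for miR-145a-3p and -0.03 for miR-145b, so for all 4 members it rests on those 2 libraries. The part of base composition in the members' levels was not tested.

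**Figure D4:**
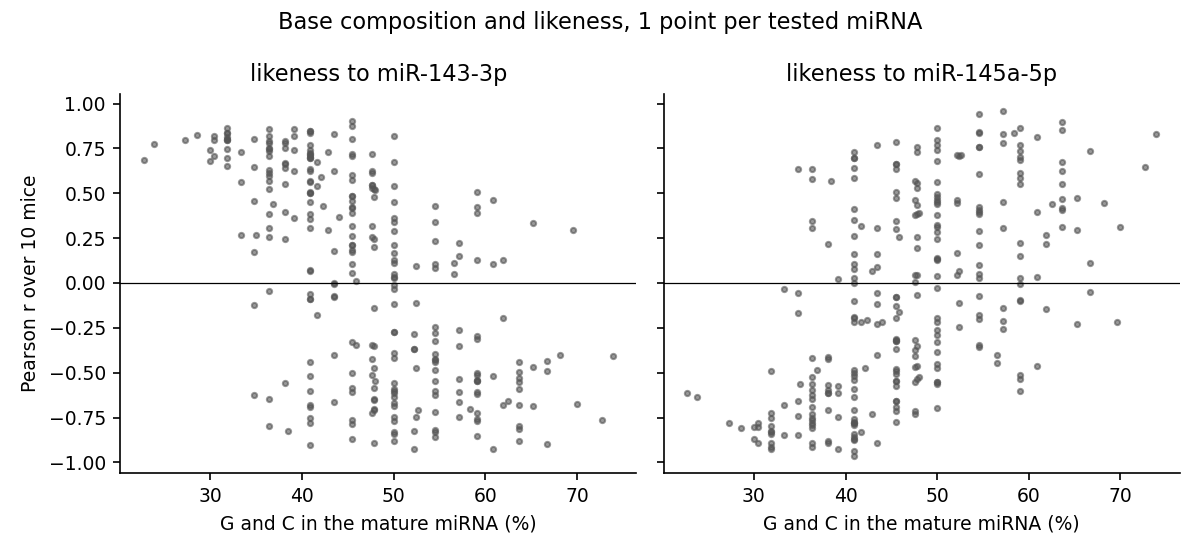
Pearson r over 10 mice with miR-143-3p (left) and with miR-145a-5p (right) against the share of G and C of the mature miRNA in percent, 1 point per tested miRNA with a RefSeq sequence (293). The cloud slopes down on the left (r = -0.59) and up on the right (r = 0.57); the points share the same 10 libraries, and without WT mice 1 and 3 the slopes are gone (r = 0.03 and -0.02).

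Other miRNAs of cells that could carry miR-143 and miR-145 were counted from lists chosen for their known cell types. Of the stellate cell and fibroblast list (the miR-199 and miR-214 arms), 5 of 5 measured rows were tested. In either direction 0 passed in edgeR, DESeq2 or limma-voom. In edgeR 1 had an unadjusted p under 0.05, where 24.4% of all miRNAs did. Estimates were positive for 4 of 5 rows, with a median log2 fold change of 0.26. The summed level of the list was 623 to 789.6 CPM in PiZ and 485.5 to 685 CPM in WT mice. The joined row of miR-199a-3p and miR-199b-3p, markers of stellate cells, averaged 379 ± 32.7 CPM over PiZ livers and 290 ± 92.6 CPM over WT livers (± SD, n = 5 per genotype; log2 fold change 0.34, SE 0.20, edgeR adjusted p = 0.332). miR-199a-5p had a log2 fold change of 0.14 (edgeR adjusted p = 0.755). The 5 rows did not share a pattern over the 10 mice, WT mice 1 and 3 included. The joined row had an r of 0.84 to miR-143-3p and -0.96 to miR-145a-5p, and miR-199b-5p one of 0.76 to miR-143-3p and -0.74 to miR-145a-5p. miR-214-3p went the other way, at -0.62 to miR-143-3p and 0.61 to miR-145a-5p. miR-199a-5p (-0.37 to miR-143-3p, 0.17 to miR-145a-5p) and miR-214-5p (-0.28 to miR-143-3p, 0.05 to miR-145a-5p) were weaker over the 10 mice. Without WT mice 1 and 3 the r to miR-143-3p was 0.12 (joined row), 0.43 (miR-199b-5p), 0.50 (miR-214-3p), 0.22 (miR-214-5p) and -0.54 (miR-199a-5p). The r to miR-145a-5p was then -0.84 (joined row), -0.35 (miR-199b-5p), -0.35 (miR-214-3p), -0.67 (miR-214-5p) and 0.03 (miR-199a-5p). All rows but miR-199a-5p were then positive to miR-143-3p and negative to miR-145a-5p. The opposite signs of miR-214-3p over the 10 mice thus rest on WT mice 1 and 3.

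The list of other miRNAs that act in vascular smooth muscle had 4 of 6 rows tested. In edgeR 0 passed and 1 had an unadjusted p under 0.05, where 24.4% of all miRNAs did. DESeq2 called 1, miR-26a-5p, and limma-voom 0. The list's median log2 fold change was -0.23 and its summed level 59290 to 88640 CPM in PiZ and 69590 to 95490 CPM in WT mice. Most of that sum was miR-26a-5p (log2 fold change -0.44, edgeR adjusted p = 0.116) and miR-21a-5p (0.04, edgeR adjusted p = 0.971), which hepatocytes also hold. Over the 10 mice the r to miR-143-3p was -0.89 (miR-221-3p), -0.60 (miR-24-3p), -0.52 (miR-26a-5p) and 0.75 (miR-21a-5p). The r to miR-145a-5p was 0.76, 0.84, 0.58 and -0.75 in that order. Without WT mice 1 and 3 the r to miR-143-3p was -0.52, -0.13, -0.19 and -0.43. The r to miR-145a-5p was then 0.01, 0.81, 0.36 and 0.18. Of the striated muscle list, which shares miR-133a-3p with the smooth muscle list, 0 of 5 rows reached the filter. Its summed level was 0.788 to 67.6 CPM in PiZ and 0.560 to 3.13 CPM in WT mice. The top of the PiZ range was PiZ mouse 4, with 465 reads of miR-133a-3p, 286 of miR-1a-3p and 7 of miR-206-3p, where no other mouse had more than 13, 2 and 0. miR-133c, which shares the miR-133 name but was not on the list, passed the filter. It had 455 CPM in PiZ mouse 4, 5.91 to 11.7 CPM in the other PiZ mice and 1.43 to 5.60 CPM in WT mice. Its log2 fold change was 3.73 (SE 1.53, edgeR unadjusted p = 0.0331, adjusted p = 0.159). miR-143-3p in PiZ mouse 4, 12465 CPM, lay among the values of the other PiZ mice.

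The 2 endothelial miR-126a arms summed to 23360 to 28800 CPM in PiZ and 7897 to 41280 CPM in WT mice, and neither passed in edgeR (0 at an unadjusted p under 0.05), DESeq2 or limma-voom (median log2 fold change 0.07). The hepatocyte, immune, erythroid and biliary lists had 5, 5, 4 and 5 rows tested, of which 0 passed in edgeR in each. At an unadjusted p under 0.05, 1, 2, 3 and 2 of them did, where 24.4% of all miRNAs did. DESeq2 called 1, 1, 1 and 0 of them and limma-voom 0, beside 14.9% and 2.08% of all tested miRNAs. The median log2 fold changes of these lists were 0.05, 0.77, 1.34 and 0.49. Estimates were positive for 3, 4, 4 and 5 of their rows and for the 2 endothelial arms, beside 1 of 4 on the smooth muscle list. A mostly positive direction was thus not particular to the stellate cell list. The summed level was 122200 to 250600 CPM in PiZ and 62800 to 239000 CPM in WT mice for the hepatocyte list, and 1671 to 2632 CPM in PiZ and 624.5 to 1891 CPM in WT mice for the immune list. It was 310.5 to 1751 CPM in PiZ and 259 to 1079 CPM in WT mice for the erythroid list, and 178 to 315 CPM in PiZ and 189 to 280 CPM in WT mice for the biliary list. The signs of the joined miR-199 row were not particular to the stellate cell list. Over the 10 mice the r to miR-143-3p and to miR-145a-5p was 0.87 and -0.85 for miR-142-3p. It was 0.71 and -0.89 for miR-144-5p and 0.62 and -0.87 for miR-141-3p. Without WT mice 1 and 3 these became 0.15 and -0.25, 0.15 and -0.84, and 0.04 and -0.79. miR-150-5p (-0.28 and 0.57) and miR-200b-3p (-0.64 and 0.58) had the other signs over the 10 mice. The part of any of these cell types in the levels of miR-143 and miR-145 was not tested.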

How the data were processed

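Livers were flash-frozen, RNA was extracted (miRNeasy) and 1 µg of it entered each TruSeq small RNA library, per the labels' protocols. The authors deposited estimated counts per mature miRNA for each of 20 runs, some of them fractional (19 to 32 miRNAs per file). Per the submitters' processing notes CASAVA was used. No source used here gives the aligner, miRBase release, genome build or treatment of multi-mapping reads. The 2 runs of each library were summed and the counts rounded to whole numbers. The 880 miRNAs listed in every file, with at least 99.999% of the reads of each library, were used.

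Counts were filtered with filterByExpr, scaled by TMM and fitted with edgeR 4.0.16 (quasi-likelihood F-test, genotype and file set, Benjamini-Hochberg adjustment over all tested miRNAs, threshold 0.05). The standard error of a log2 fold change was taken as its size over the root of its F. Log2 CPM used a prior count of 2 and ratios a pseudocount of 0.5. Ratios were tested by exact permutation and correlations with 100000 permutations in scipy 1.17.1. Alternatives used DESeq2 1.42.0 and limma 3.58.1 in R 4.3.3, other scalings and filters, no file set term, each file set or run alone, and mice left out. The edgeR step was tested on simulated counts. Figures were drawn in Python 3.11.15 with matplotlib 3.10.9.

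The members and lists were chosen with earlier results of these data known. The named miRNAs are the members, the 5 tested miRNAs most like miR-143-3p and the 5 most like miR-145a-5p by Pearson r. The miRNAs next in abundance and the most abundant of the context lists were named by the same rule. miR-22-3p, miR-339-3p, miR-133c, the other rows of the context lists and miR-145b's neighbours lie outside that rule. They were picked once their values were known. Intervals and limits cover counting error only. The labels do not say that mice of one genotype came from separate litters, so p-values measure the spread between these animals.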

Additional observations from a re-analysis of the deposited data

Results flagged for a closer look

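Among the 14 sets of 5 mice examined (4 levels and 3 ratios in each genotype), 2 held a mouse far from the other 4, where a gap of more than 0.71 of the group's range counts as far. Chance gives such a gap in about 1 of 20 groups. miR-143-3p was lowest in PiZ mouse 5 (8946 CPM, against 12465 to 13939 CPM in PiZ mice 1 to 4), with a gap of 0.748 of the range of log2 CPM. miR-145a-3p was highest in WT mouse 2 (29.7 CPM, where the other 4 had 15.0 to 17.6 CPM), with a gap of 0.771 of the range, from 57 reads.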

How the results depend on the processing

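The log2 fold changes of miR-145a-5p and miR-145b between PiZ and WT kept their sign, and did not pass the threshold, in all 25 alternatives (-0.75 to -0.29 and -0.64 to -0.16). Depth limits the rarer members most: 1 read was worth 0.0888 CPM in the deepest library and 0.715 CPM in the shallowest, and miR-145a-3p had 21 reads in WT mouse 1. The sets without PiZ mouse 5 as well as WT mice 1 and 3, and every value of the file set comparison, were chosen after seeing the data. The cause of the changes below was not tested.

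miR-143-3p between genotypes was -0.31 in the shorter file set alone, -0.11 without WT mice 1 and 3 and -0.0622 to 0.45 with 1 mouse left out. miR-145a-3p was -0.0018 with upper quartile scaling, -0.0899 without WT mice 1 and 3, -0.19 with PiZ mouse 5 left out as well, and -0.0894 to 0.28 with 1 mouse left out. The 31 miRNAs called became 83 with no filter, 13 with a mean of 10 CPM or more, 50 in DESeq2, 7 in limma-voom, 17 with no file set term, 18 with run 2 alone and 100 without WT mice 1 and 3 and PiZ mouse 5. In edgeR 0 were called in the shorter file set alone (55 at an unadjusted p under 0.05) and without WT mice 1 and 3 (104 at an unadjusted p under 0.05), and 5 to 46 with 1 mouse left out.

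The difference of the genotype effect between file sets for miR-145a-3p (0.06) was -0.10 with library totals, -0.0487 with a mean of 10 CPM or more, -0.26 with run 2 alone, -0.52 without WT mice 1 and 3 and -0.14 to 0.52 with 1 mouse left out. For miR-145b it was -0.42 to 0.66 with 1 mouse left out, below 0 without WT mouse 4. Such differences were called for 6 miRNAs with no filter and for 0 to 15 with 1 mouse left out, 15 without WT mouse 2.

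The difference in the ratio of miR-143-3p to miR-145a-5p was -0.0348 in the shorter file set alone and 0.52 to 1.34 with 1 mouse left out. Without WT mouse 4 its exact permutation p was 0.0318. The difference for the miR-145a arms was -0.69 with a pseudocount of 5 (exact permutation p = 0.0397) and -0.93 to -0.46 with 1 mouse left out. Without WT mouse 2, 4 or 5 its exact permutation p was under 0.05. These p-values were not adjusted over the 2 ratios, as the main tests were. The correlation of miR-143-3p and miR-145a-5p was -0.62 with upper quartile scaling, 0.0104 without WT mice 1 and 3, -0.36 with PiZ mouse 5 left out as well and -0.89 to -0.46 with 1 mouse left out, not passing without WT mouse 1 or WT mouse 3. Between the longer and the shorter list, miR-143-3p was 0.0301 without WT mice 1 and 3 and miR-145a-3p was -0.0025 with no filter. Upper quartile scaling moved the median log2 fold change of all miRNAs by -0.16. No paired analysis was possible because the replicate numbers in the labels are runs of one library, and the mouse numbers of PiZ and WT name different animals.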
